A study of Mus musculus with 4 samples.

Results

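The guanylate-binding proteins and the immunity-related GTPases are interferon-gamma inducible enzymes of cell-autonomous defence, and 10 of their genes were followed here in splenic regulatory T (Treg) cells with and without a floxed Tfrc gene. The 10 were 8 guanylate-binding protein genes (Gbp2 to Gbp9) and 2 immunity-related GTPase genes (Irgm1 and Igtp), taken by symbol from a table of 47729 genes, and all 10 passed the filter on low counts that left 12536 genes. They were chosen because the count of Gbp5 was known to fall in these libraries, and the question was whether its relatives fall with it. The difference between genotypes in these genes is therefore a description, given without a test.

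The 4 libraries came from sorted CD25+YFP+ Treg cells of female C57BL/6 mice, 2 labelled WT (Tfrc +/+ Foxp3 YFP-Cre/+) and 2 labelled TfR1 cKO (Tfrc fl/fl Foxp3 YFP-Cre/+). Tfrc encodes TfR1, the receptor for transferrin-bound iron. Both groups carry the Foxp3 YFP-Cre allele on 1 of 2 X chromosomes, so only the Treg cells in which that X is active make Cre and YFP, and the others were left out by the YFP gate. The mice fall under a general range of 6 to 8 weeks of age. The 2 libraries of a group are described as biological replicates, the number of animals behind a library is not given in the sources used here, and a kit for low RNA input was used. The labels name spleen as the tissue, while the study's text also names lymph nodes.

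Guanylate-binding proteins are large GTPases that assemble on the membranes of intracellular bacteria and of parasite vacuoles, and several of them promote inflammasome activation. Immunity-related GTPases are smaller, and the IRGM proteins Irgm1 and Igtp (also called Irgm3) act as regulators that sit on the membranes of the host cell. Both families are transcribed in response to interferon-gamma, through GAS elements (gamma-activated sites) and through Irf1, which binds interferon-stimulated response elements (ISRE).

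Promoter sequence was at hand for 6 of the 10 genes in the RefSeq table of GRCm38.p6, and it is shown so that the GAS and ISRE letters near the start of Gbp5 can be compared with those of its relatives. The strand is that of the gene and each run ends at the base before the listed start of transcription. Capitals mark a match to the ISRE core (GAAA, any 2 bases, GAAA) or to the GAS (TTCNNNGAA), each searched on both strands.

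Gbp5 (chr3:142496684-142496933, plus strand): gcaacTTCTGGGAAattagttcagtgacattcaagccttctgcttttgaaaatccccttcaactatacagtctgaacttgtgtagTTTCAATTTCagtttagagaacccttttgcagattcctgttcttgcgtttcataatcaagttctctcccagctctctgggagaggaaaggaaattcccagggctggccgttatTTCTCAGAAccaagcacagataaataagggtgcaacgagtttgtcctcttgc
Gbp7 (chr3:142530216-142530335, plus strand): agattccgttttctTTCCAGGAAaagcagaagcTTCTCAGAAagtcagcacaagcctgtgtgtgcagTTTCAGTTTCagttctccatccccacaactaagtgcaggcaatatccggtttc
Gbp3 (chr3:142559924-142560043, plus strand): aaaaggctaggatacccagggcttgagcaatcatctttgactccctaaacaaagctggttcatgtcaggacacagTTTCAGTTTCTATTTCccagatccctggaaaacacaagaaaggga
Gbp2 (chr3:142620543-142620662, plus strand): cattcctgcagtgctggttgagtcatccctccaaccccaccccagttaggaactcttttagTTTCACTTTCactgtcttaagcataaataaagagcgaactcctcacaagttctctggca
Irgm1 (chr11:48871421-48871540, minus strand): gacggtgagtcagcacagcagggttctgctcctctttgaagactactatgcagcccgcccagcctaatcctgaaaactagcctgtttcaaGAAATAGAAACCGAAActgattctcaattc
Igtp (chr11:58199436-58199555, plus strand): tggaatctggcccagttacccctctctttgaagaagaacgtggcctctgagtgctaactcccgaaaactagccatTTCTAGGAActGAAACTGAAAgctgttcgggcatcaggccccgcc

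All 6 of these genes had an ISRE match within 250 bases before the start, against 3.44% of the 32851 promoters in the table (each from 250 bases before to 50 after a listed start). In Gbp3 the match was at the first of its listed starts, and the second had none. The run of Gbp3 shown ends at 142560043 and so overlaps the span of the gene given below, which begins at 142560016. The match began 59 bases before the start in Gbp2, 53 in Gbp7, 45 in Gbp3, 34 in Igtp and 30 in Irgm1, and in Gbp3 and Irgm1 another match overlapped it. In Gbp5 the ISRE match was the farthest of the 6 from the start, at 165 bases, while a GAS match lay at 52 bases and another at 245. A GAS match was also present in Gbp7 (106 and 87 bases) and in Igtp (45 bases), against 8.30% of all promoters. An ISRE and a GAS match stood together in 3 of the 6, and in 0.454% of all promoters. A match is a description of the letters and shows no binding.

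The libraries held from 10841939 to 17278448 counts, and replicates of a genotype differed far beyond counting noise. Levels are given in CPM, the counts of a gene relative to the library total and scaled by TMM. Tfrc itself stood at 50.8 and 54.1 CPM in WT and 56.1 and 48.3 CPM in TfR1 cKO, so its count, taken along the entire gene, did not tell the genotypes apart and each direction below rests on the labels. Foxp3, the defining transcription factor of Treg cells, was at 194 and 130 CPM against 122 and 114 CPM, and none of 8 Treg markers was at 0 in any library. The 8 summed to 4478 and 4175 CPM in WT and to 3601 and 3148 CPM in the libraries labelled TfR1 cKO. Of the 8, 6 were lower in both of the latter than in both WT libraries, against 18.9% of all genes tested, and Ikzf2 and Tnfrsf18 overlapped. The part of this in the differences below was not tested. Of 20 macrophage markers, of which 2 were at 0 counts in WT replicate 2, all 20 were higher in both WT replicate 1 and TfR1 cKO replicate 2 than in both other libraries. Their summed level was 1596 CPM in WT replicate 1, 426 CPM in WT replicate 2, 321 CPM in TfR1 cKO replicate 1 and 4095 CPM in TfR1 cKO replicate 2, so differences are also given within the pair that is low in these markers and within the pair that is high in them, though the latter 2 differ from each other as well. Ctss alone, at 344.5 and 324.6 CPM in WT and 247.8 and 384.3 CPM in TfR1 cKO, made up most of the sum in the low pair. The sums thus understate how unequal the other markers were. The summed levels of 5 dendritic (3.93 to 10.3 CPM), 5 B cell (25.4 to 42.4 CPM), 2 CD8 T cell (11.1 to 12.6 CPM) and 4 NK cell (3.19 to 5.91 CPM) markers were low in all libraries. Of 4 neutrophil markers at least 3 were at 0 counts in each library, and 3 erythroid markers summed to between 16.6 and 264 CPM.

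Gbp5 was lower in the libraries labelled TfR1 cKO. Gbp5 (ENSMUSG00000040264, chromosome 3, 142496934 to 142522344 in GRCm38.p6) promotes assembly of the NLRP3 inflammasome in macrophages. It was counted at 72.4 CPM in WT replicate 1 (884 counts) and 80.1 CPM in WT replicate 2 (855 counts). In the libraries labelled TfR1 cKO it was at 17.8 CPM in replicate 1 (308 counts) and 15.5 CPM in replicate 2 (212 counts). The groups did not overlap, and the replicates of each lay close together.

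The group means of Gbp5 were 76.3 CPM for WT (SD 5.503, n = 2) and 16.6 CPM for TfR1 cKO (SD 1.61, n = 2). The level was 4.59-fold lower, or -2.20 on the log2 scale with a standard error of 0.17. The pair of libraries with little macrophage RNA, TfR1 cKO replicate 1 against WT replicate 2, differed by -2.17 on the log2 scale, and the pair with much of it, TfR1 cKO replicate 2 against WT replicate 1, by -2.21. The difference over all 4 libraries contains both pairs, so its closeness to either is no independent check. The part of macrophage RNA in it was not tested. When any 1 library was omitted the difference between genotypes stayed between -2.30 and -2.11. In a bulk measurement fewer cells that express a gene and less of its RNA per cell cannot be told apart.

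**Figure D1:**
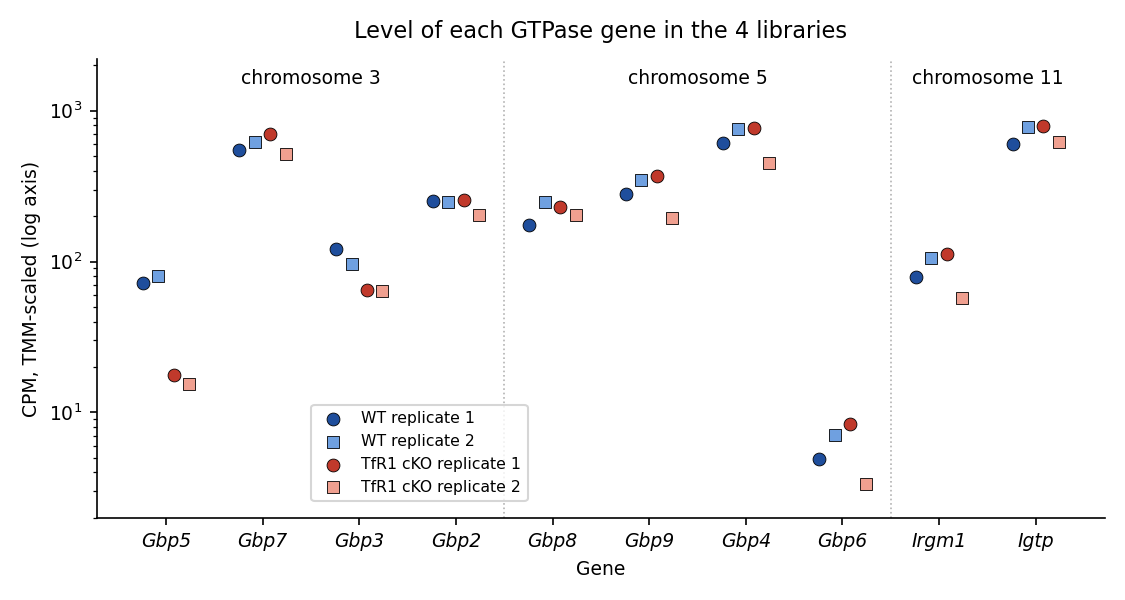
Level of each of the 10 GTPase genes in the 4 libraries, in CPM scaled by TMM on a log axis, grouped by chromosome and ordered along it. Each point is 1 library, circles are replicate 1 and squares replicate 2. The TfR1 cKO points lie below both WT points in Gbp5 (17.8 and 15.5 against 72.4 and 80.1 CPM) and Gbp3, and overlap with them in the other 8 genes.

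Gbp3 was lower as well, by a smaller amount. Gbp3 (ENSMUSG00000028268, chromosome 3, 142560016 to 142573213) lies in the same cluster as Gbp5. WT replicate 1 had 121 CPM of Gbp3, WT replicate 2 had 96.4 CPM, and the libraries labelled TfR1 cKO had 64.4 and 63.7 CPM. Both of these were below both WT libraries, and WT replicate 1 was the higher of the WT pair. The means were 109 ± 17.1 CPM and 64.0 ± 0.543 CPM (SD over 2 libraries). This was a level 1.69-fold lower, or -0.76 on the log2 scale with a standard error of 0.17. The difference was -0.58 between the pair of libraries with little macrophage RNA and -0.92 between the other pair, and it ranged from -0.91 to -0.58 with each library left out.

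The other members of the cluster on chromosome 3 did not separate by genotype. Gbp7 (ENSMUSG00000040253, chromosome 3, 142530336 to 142550151), whose protein aids assembly of the phagocyte oxidase, lies between Gbp5 and Gbp3. It was at 547 and 622 CPM in WT. The libraries labelled TfR1 cKO had 706 and 520 CPM and thus held both its highest and its lowest value. Its log2 fold change was 0.07 (standard error 0.20). Gbp2 (ENSMUSG00000028270, chromosome 3, 142620663 to 142638008), which is recruited to Toxoplasma vacuoles, was at 251 and 248 CPM in WT and at 257 and 205 CPM in TfR1 cKO. The WT libraries lay between the TfR1 cKO libraries, and the log2 fold change was -0.11 (standard error 0.16). Along the chromosome Gbp5 begins first, Gbp7 33.4 kb, Gbp3 63.1 kb and Gbp2 124 kb farther on, so the lower genes were not next to each other.

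**Figure D2:**
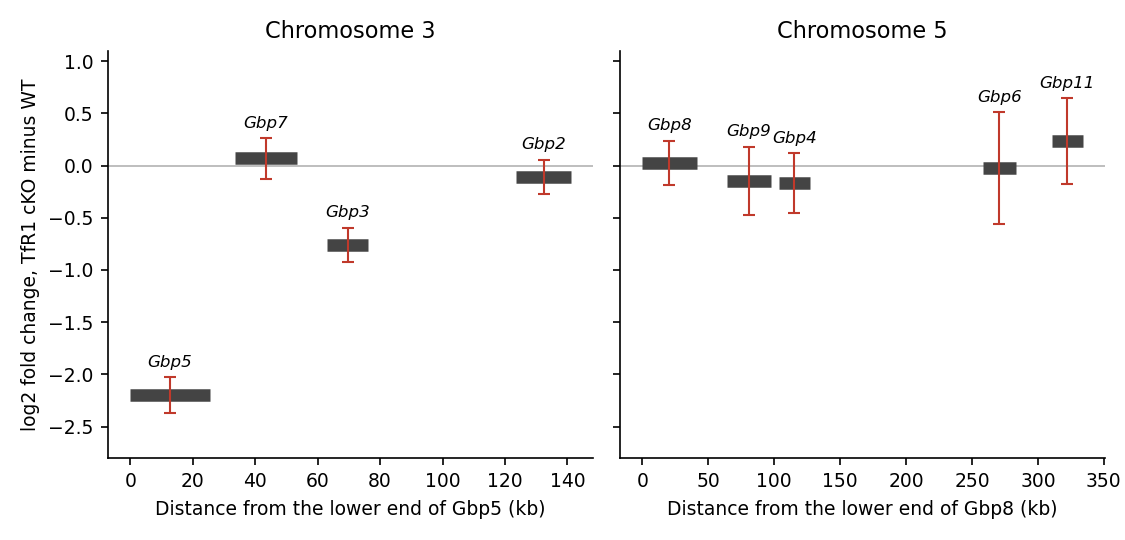
Log2 fold change (TfR1 cKO minus WT) of the guanylate-binding protein genes against their position in the clusters on chromosomes 3 and 5, in kb from the lower end of Gbp5 and of Gbp8. Gbp2b and Gbp10 were not analysed here and are not shown. Dark bars span each gene and red bars are the standard error. Gbp5 at -2.20 and Gbp3 at -0.76 lie below 0, with Gbp7 at 0.07 between them, and the genes on chromosome 5 (Gbp11, which is not among the 10, included) lie between -0.17 and 0.23.

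None of the 4 members on chromosome 5 separated by genotype, and in each the replicates differed more than the genotypes. Gbp4 (ENSMUSG00000079363, chromosome 5, 105115767 to 105139586) was at 612 and 757 CPM in WT and 769 and 449 CPM in TfR1 cKO. Gbp9 (ENSMUSG00000029298, 105076464 to 105110357) was at 281 and 346 CPM in WT and at 371 and 195 CPM in TfR1 cKO. In both genes TfR1 cKO replicate 1 was the highest and TfR1 cKO replicate 2 the lowest of the 4 libraries. Their log2 fold changes were -0.17 (standard error 0.29) and -0.15 (standard error 0.33), against differences between the TfR1 cKO replicates of 0.78 and 0.93 on the log2 scale, given as replicate 1 over replicate 2.

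Gbp8 (ENSMUSG00000034438, 105012513 to 105053609) was at 176 and 250 CPM in WT and at 231 and 203 CPM in TfR1 cKO, and its log2 fold change was 0.03 (standard error 0.21), and here the WT libraries were the extremes. Gbp6 (ENSMUSG00000079362, 105270702 to 105295871) was the least counted member, at 4.91 and 7.03 CPM in WT and 8.36 and 3.36 CPM in TfR1 cKO. These levels rest on 46 to 145 counts a library, and its log2 fold change of -0.02 has a standard error of 0.53.

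The 2 immunity-related GTPases did not separate either. Irgm1 (ENSMUSG00000046879, chromosome 11, 48865245 to 48871420), which is known for its part in autophagy and in restraining other GTPases of its family, was at 78.7 and 105 CPM in WT and at 111 and 57.6 CPM in TfR1 cKO. Igtp (ENSMUSG00000078853, chromosome 11, 58199556 to 58207592), needed in mice for defence against Toxoplasma, was at 598 and 776 CPM in WT and at 796 and 623 CPM in TfR1 cKO. For both, the groups overlapped. The log2 fold changes were -0.12 (standard error 0.35) in Irgm1 and 0.05 (standard error 0.21) in Igtp.

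Of the 10 members, 2 (Gbp5 and Gbp3) were lower in both libraries labelled TfR1 cKO than in both WT libraries, 0 were higher in both and 8 overlapped. Among all genes tested 18.9% were lower in both and 16.0% higher in both. As Gbp5 was chosen from this contrast, nothing is read from these counts. The median log2 fold change was -0.11 over the members and 0.01 over all genes tested, and 7 of the 10 members were below 0.

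The median of the members was decided by single libraries. Without TfR1 cKO replicate 1 it was -0.64. Without TfR1 cKO replicate 2 it was 0.19, without WT replicate 2 it was 0.06 and without WT replicate 1 it was -0.27. Between the 2 libraries with little macrophage RNA it was 0.05. Of the 8 members whose groups overlapped, TfR1 cKO replicate 1 was the highest library in 7 and TfR1 cKO replicate 2 the lowest in 6.

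**Figure D3:**
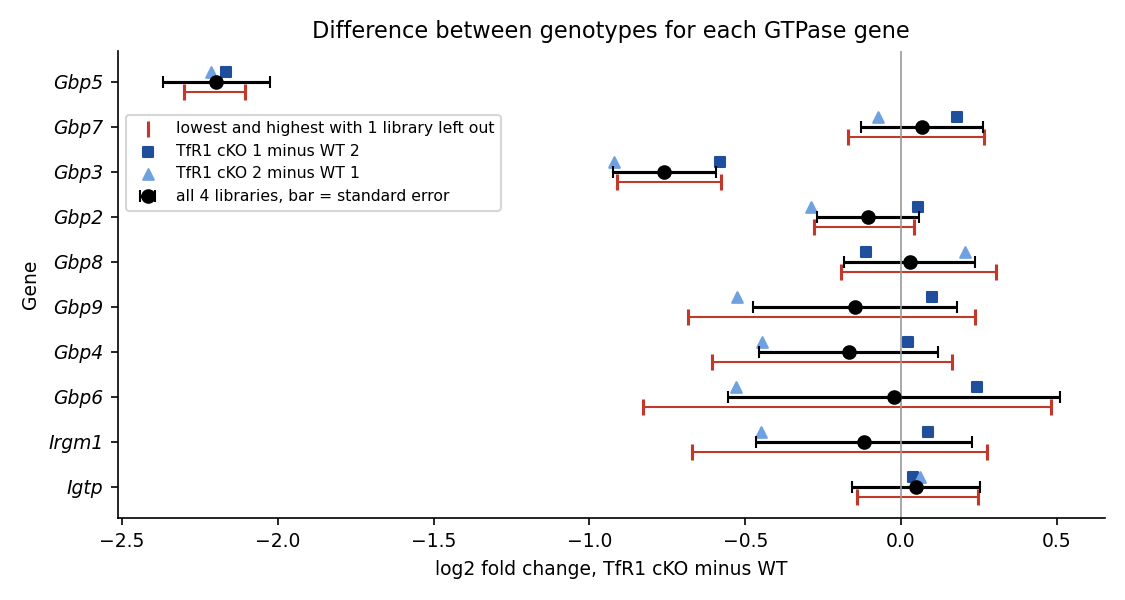
Log2 fold change (TfR1 cKO minus WT) of each gene in all 4 libraries (black, with its standard error), its lowest and highest value with 1 library left out (red), and the differences of single libraries (blue squares, TfR1 cKO 1 minus WT 2; light triangles, TfR1 cKO 2 minus WT 1). The red ranges run from -2.30 to -2.11 in Gbp5 and from -0.91 to -0.58 in Gbp3, and across 0 in the other 8 genes.

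Levels can be compared between genes only per length, for which CPM were divided by the summed exon length in kb (RPKM, with exons of GENCODE vM1). In WT the order was Igtp at 340 ± 62.2 RPKM, Gbp4 at 151 ± 22.6, Gbp7 at 105 ± 9.62, Gbp2 at 99.0 ± 0.871, Gbp9 at 86.4 ± 12.7, Gbp8 at 81.8 ± 20.1, Gbp3 at 33.5 ± 5.29, Gbp5 at 18.9 ± 1.37, Irgm1 at 15.8 ± 3.18 and Gbp6 at 1.38 ± 0.347 RPKM (SD, n = 2 each). The WT libraries overlapped between the neighbours Gbp7 and Gbp2, Gbp9 and Gbp8, and Gbp5 and Irgm1. The order of Gbp7 and Gbp2 and that of Gbp9 and Gbp8 differed between the WT libraries. Gbp5 was above Irgm1 within each, at 17.96 against 13.55 RPKM in WT replicate 1 and 19.9 against 18.05 in WT replicate 2. The other neighbours in the order did not overlap, though Gbp2 and Gbp9 were close, at 98.4 RPKM in the lower library of Gbp2 and 95.3 RPKM in the higher of Gbp9.

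Gbp5 was thus a minor member of its family also in WT cells. It made up 3.28% of the summed RPKM of the 8 guanylate-binding protein genes in WT and 0.789% in TfR1 cKO, where it was at 4.12 ± 0.399 RPKM (SD, n = 2). Gbp3 made up 5.80% in WT and 3.78% in TfR1 cKO, at 19.8 ± 0.168 RPKM (SD, n = 2). Gbp4 held the largest share in both genotypes, 26.1% and 25.7%. The level of Irgm1 depends on the annotation, since its summed exons span 5810 bases and its longest transcript 2259, and with the latter it was at 40.7 RPKM in WT, next to Gbp3 at 40.4.

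Reads of close copies can be split or dropped in counting, and the handling of reads that match several genes is not given in the sources used here. Of the 50-base words of the longest transcript, 1.95% in Gbp5, 4.79% in Gbp3, 2.31% in Gbp7 and 2.07% in Gbp2 also occurred in a protein-coding transcript of another gene. On chromosome 5 the share was 9.07% in Gbp9, 12.4% in Gbp4, 20.2% in Gbp8 and 80.9% in Gbp6, most of the last with Gbp10. It was 10.1% in Igtp, mostly with Irgm2, and 0% in Irgm1. The counts of Gbp6 are uncertain for this reason, and those of Gbp5 and Gbp3 rest mainly on sequence of their own. The coding sequences of Gbp6 and Gbp9 were the most alike of the 45 pairs of members, identical in 89.6% of aligned positions, and those of Gbp3 and Gbp7 in 76.5%.

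The pattern of Gbp5 over the 4 libraries was compared with that of each of the other 12535 genes tested, as the Euclidean distance between log2 CPM centred on each gene's mean. With 4 libraries this is a description only. The nearest genes were Plcxd2 (distance 0.40), Naip6 (0.42), ENSMUSG00000097899 (0.45), Vsig10 (0.50) and Fgl2 (0.51), against a median distance of 2.25. Counts were low in Naip6 (59 and 42 in WT, 16 and 14 in TfR1 cKO) and Vsig10 (71 and 57, 20 and 21). They were lowest in ENSMUSG00000097899 (14 and 10, 1 and 1). Its fitted log2 fold change was -3.83, and the prior count of 2 used for the distance shrinks such a difference. Plcxd2 was at 95.4 and 96.8 CPM in WT and at 27.95 and 26.7 CPM in TfR1 cKO. Fgl2, a secreted mediator of Treg suppression, was at 23.9 and 23.5 CPM and at 7.38 and 7.01 CPM. Naip6, of the NAIP family of sensor proteins of the NLRC4 inflammasome, was at 4.83 and 3.94 CPM and at 0.922 and 1.02 CPM. None of the 5 is a GTPase of the lists used here. The nearest member was Gbp3, at a distance of 1.48 and rank 314, and the other members had distances from 2.02 to 2.25.

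The rest of the pathway was read from lists of named genes. Of 20 genes of interferon-gamma signalling, 19 were tested, and 3 were lower and 1 higher in the libraries labelled TfR1 cKO at an unadjusted p-value under 0.05 and a log2 fold change of at least 0.5 in edgeR's quasi-likelihood test. Among all genes tested 2.48% were lower and 1.60% higher by that threshold. None of the 19 was called after Benjamini-Hochberg adjustment by edgeR or DESeq2. Over all genes edgeR then called 0%, of which 655 had an unadjusted p-value under 0.05, and DESeq2 called 33 lower and 6 higher. The number of signalling genes past the unadjusted threshold was 1 without WT replicate 1, 2 without each of the other libraries in turn, and 0 with the replicate number as a block. The list's median difference was -0.06 on the log2 scale. Both libraries labelled TfR1 cKO lay below both WT libraries in 6 (31.6%) of the 19 and above both in 3 (15.8%), against 18.9% and 16.0% of all genes.

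The ligand and a main transcription factor were among the lower genes. Ifng, which encodes interferon-gamma, was at 16.3 and 8.91 CPM in WT and at 2.13 and 5.91 CPM in TfR1 cKO. Its log2 fold change was -1.65 with a standard error of 0.60 (edgeR's quasi-likelihood test, unadjusted p = 0.0395 and Benjamini-Hochberg adjusted p = 0.911). Irf1 was at 199 and 154 CPM in WT and at 115 and 123 CPM in TfR1 cKO, and -0.57 on the log2 scale (standard error 0.18, unadjusted p = 0.0213 and adjusted p = 0.911 with edgeR). Nlrc5, the transactivator of MHC class I genes, was at 353 and 334 CPM against 275 and 201 CPM, and its log2 fold change was -0.53 (standard error 0.19). For all 3 the groups did not overlap, and none passed after adjustment.

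The receptor chains had differences of opposite sign, neither of which passed after adjustment. Ifngr1, which binds the cytokine, was at 744 and 763 CPM in WT and at 542 and 591 CPM in TfR1 cKO, a log2 difference of -0.41 (standard error 0.13). Ifngr2, the signalling chain, was at 26.9 and 29.5 CPM against 40.8 and 39.5 CPM, a log2 difference of 0.51 (standard error 0.17). Their adjusted p-values in edgeR were both 0.911. Socs1, the feedback inhibitor of the pathway, was at 9.004 and 10.4 CPM against 11.4 and 5.99 CPM, a log2 difference of -0.16 (standard error 0.40). For Socs1 the groups overlapped. Tbx21, which encodes the Th1 regulator T-bet, was at 1.59 to 1.72 CPM in all 4 libraries. The summed level of 5 genes of Th1-like cells (Tbx21 and Ifng among them) was 91.4 and 71.1 CPM in WT and 28.4 and 51.2 CPM in TfR1 cKO. Most of it was Cxcr3, at 68.5 and 57.7 against 23.3 and 41.6 CPM. Of the 5, 3 were lower in both libraries labelled TfR1 cKO than in both WT libraries. Il12rb2 was higher in both, and Tbx21 overlapped. Of all genes tested, 18.9% were lower and 16.0% higher in both.

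**Figure D4:**
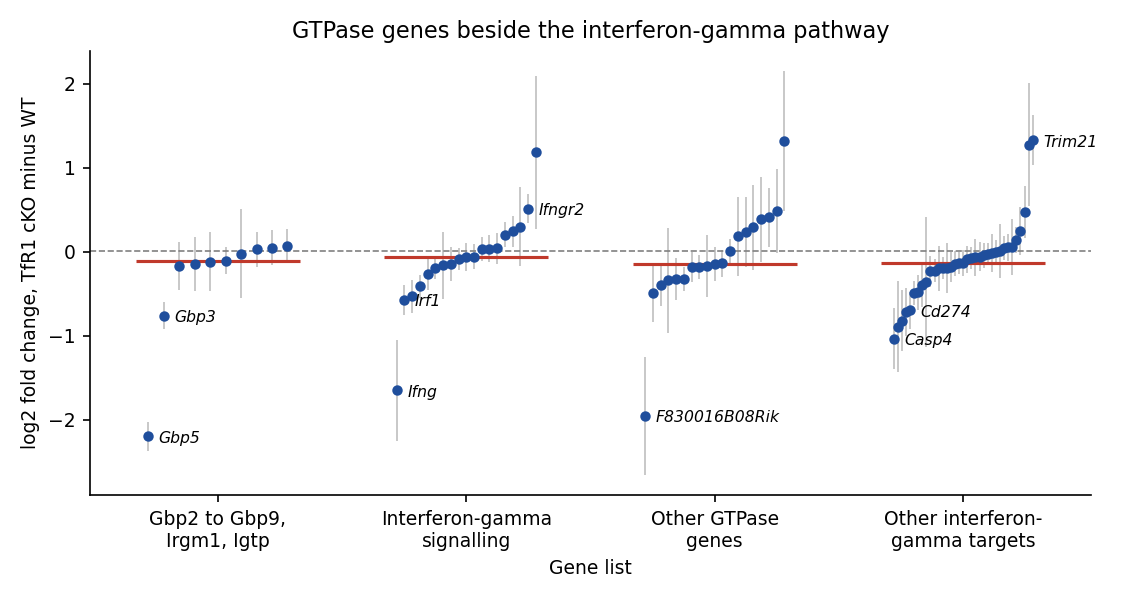
Log2 fold change (TfR1 cKO minus WT) of each tested gene in the 10 GTPase genes and in the 3 lists of the interferon-gamma pathway, each sorted from low to high. Grey bars are standard errors, red lines list medians (-0.11, -0.06, -0.15 and -0.14) and the dashed line the median of all genes tested (0.01). Gbp5 at -2.20 is the lowest of the genes shown.

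Other GTPase genes of these families, with relatives such as the atlastins and Mx proteins, were counted next. Of 23 listed genes 19 were tested, 1 (5.26%) was lower and 0 were higher at the unadjusted threshold, against 2.48% and 1.60% of all genes, and none was called after adjustment by edgeR or DESeq2. Without WT replicate 2 or without TfR1 cKO replicate 2 the number was 0, and without TfR1 cKO replicate 1 it was 2, while with at least 10 counts required or with the replicate block it was 0. The median log2 fold change was -0.15. The groups overlapped in 13 of 19 (68.4%) and in 65.1% of all genes. The TfR1 cKO libraries lay below both WT libraries in 4 (21.1%) and above both in 2 (10.5%), against 18.9% and 16.0%. The lower gene was F830016B08Rik, at 2.37 and 3.66 CPM in WT and 1.15 and 0.365 CPM in TfR1 cKO (29, 39, 20 and 5 counts), and -1.95 on the log2 scale (standard error 0.71, adjusted p = 0.911 with edgeR). Irgm2, Gm12250 and Ifi47, which lie near members on chromosome 11 or belong to the same family, had log2 fold changes of -0.14, -0.18 and 0.00. Tgtp1 and Tgtp2, near-identical copies whose counts can be split between them, had log2 fold changes of 0.29 and 0.39 with standard errors of 0.51. Gbp2b, Gbp10 and Gvin2 were not analysed here.

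Other genes that interferon-gamma induces, among them genes of antigen processing and presentation, were read in the same way. Of 40 listed genes 35 were tested, 2 (5.71%) were lower and 1 (2.86%) higher at the unadjusted threshold, against 2.48% and 1.60% of all genes, and none was called after adjustment by edgeR or DESeq2. Without TfR1 cKO replicate 2 the number was 5. Their median log2 fold change was -0.14, and 13 of 35 (37.1%) were lower in both libraries labelled TfR1 cKO and 1 (2.86%) higher in both, against 18.9% and 16.0% of all genes. Cd274, which encodes PD-L1, was at 40.5 and 30.8 CPM in WT and at 22.3 and 21.7 CPM in TfR1 cKO (log2 fold change -0.70, standard error 0.22). Casp4, which encodes the inflammatory caspase-11, was at 7.20 and 11.1 CPM against 4.21 and 4.67 CPM (log2 fold change -1.04, standard error 0.36). Trim21, an intracellular antibody receptor, was higher, at 7.04 and 10.5 CPM in WT and at 20.8 and 23.1 CPM in TfR1 cKO (log2 fold change 1.32, standard error 0.30). The adjusted p-value of each of these 3 was 0.911 in edgeR.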

How the data were processed

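Per the labels, the reads were trimmed with Trim Galore 0.6.7, mapped with STAR 2.7.9a to mm10 and counted with featureCounts, while the study's methods name mm9. Neither the strand setting nor the release of the annotation is given in the sources used here. The authors deposited raw counts for each library and Ensembl identifier. CPM, RPKM and log2 values were computed here. Symbols were found for 32799 of 47729 identifiers.

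From these counts, 12536 genes passed filterByExpr. After TMM scaling, genotype alone was fitted by the quasi-likelihood method of edgeR 4.0.16 in R 4.3.3, and p-values were adjusted after Benjamini-Hochberg over all of them. Calls needed p under 0.05 and an absolute log2 difference of 0.5 or more. A standard error is the log2 difference over the root of its F statistic. CPM are TMM-scaled, and differences between single libraries use log2 CPM with a prior count of 2. An exact permutation test of 1 gene could not go below 0.333 with 2 against 2 libraries. The study describes the libraries of a group as biological replicates without saying how many mice each holds.

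The members, lists and alternatives were chosen with earlier results of these data known. Genes named beside the members were Irf1, Ifng, Ifngr1, Socs1, Tbx21, Tfrc, Foxp3, list genes past the unadjusted threshold and the 5 nearest to Gbp5; other names were chosen after their values were seen, and 1 gene of the rule is not reported here. Promoters and gene positions are from RefSeq on GRCm38.p6; lengths and 50-base words are from GENCODE vM1, matched by identifier, with coding sequences aligned in Biopython 1.88. Coding sequences took the place of a planned comparison of proteins. Alternatives were DESeq2 1.42.0, its size factors, total library size only, 2 other count filters, other minimum changes, a replicate block and each library left out. The fits were tested on simulated counts.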

Additional observations from a re-analysis of the deposited data

How the results depend on the processing

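Gbp5 and Gbp3 stayed below 0 in each of the 12 settings, and Gbp5 between -2.30 and -2.11. The other 8 members changed sign in at least 1 setting that left out libraries. In all, 8 of 110 alternative values of single members moved by more than the SD of replicates pooled over the groups. Each of them had at least 1 library left out. The members' median of -0.11 ran from -0.64 (without TfR1 cKO replicate 1) to 0.19 (without TfR1 cKO replicate 2), was 0.05 between WT replicate 2 and TfR1 cKO replicate 1, and was -0.16 with the replicate block. The number of members lower in both libraries labelled TfR1 cKO was 2, and 2 to 8 with 1 library left out (8 without TfR1 cKO replicate 1). With a library left out the condition is weaker. The share of all genes that meet it is not given here, so nothing is read from that count. No scaling moved the median of all genes by more than 0.04.

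Over all genes edgeR gave 200 higher and 311 lower at the unadjusted p-value, 650 higher without a filter beyond 1 count, 91 higher and 104 lower when a change of at least 1 on the log2 scale was required, and 151 to 268 higher and 140 (without WT replicate 1) to 372 lower with 1 library left out. After adjustment edgeR called 0, or 167 higher and 95 lower without the filter, and DESeq2 called 6 higher and 33 lower. The cause was not tested. Fits with 1 library in a group assume that it varies like the other group.

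The deviations of same-numbered libraries had a correlation of -0.609 across genes. With 2 libraries a group this cannot decide whether equal replicate numbers mark paired libraries. With the replicate block 70 genes were higher and 141 lower at the unadjusted p-value. A block that joins unlike numbers, which was added once the data had been seen, gave 596 and 519, or 150 and 210 adjusted.

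The signalling list, with 4 genes past the unadjusted threshold, had 0 with the replicate block and 1 to 2 with 1 library left out (1 without WT replicate 1, 2 without each of the others), and 1 adjusted (Ifng) without the filter. The other GTPases, with 1 gene, had 2 without the filter, 0 where each library had to hold 10 counts or more, 0 with the replicate block and 0 to 2 with 1 library left out (0 without WT replicate 2 and without TfR1 cKO replicate 2, 2 without TfR1 cKO replicate 1). The targets list, with 3 genes, had 6 without the filter, with 1 adjusted (Trim21), and 2 to 5 with 1 library left out (5 without TfR1 cKO replicate 2). The ratio of the highest to the lowest level per length, Igtp over Gbp6, was 245 in WT. It could not change with the longest transcript, as either length is 2022 bases in Igtp and 4314 in Gbp6. It is therefore no check of the choice of length. Gbp6 was the least counted member, at 46 counts in its lowest library. As 80.9% of its 50-base words are shared with another gene, that count cannot be put down to depth.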
